A study of Mus musculus with 10 samples.

Results

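The potassium channel genes of the mouse uterus were taken as the protein-coding genes whose symbol starts with Kcn, which gave 87 of the 29268 genes in the table of counts. They comprise 38 pore subunits of voltage-gated (Kv) channels, 8 calcium or sodium activated channels, 14 inward rectifiers, 10 tandem pore (K2P) channels and 17 auxiliary subunits. Uterine mRNA was sequenced from 5 HSD17B1TG and 5 wild-type (WT) mice at the age of 4 months, all on the FVB/N background, with 1 library per mouse. HSD17B1TG mice carry, in heterozygous form, human HSD17B1 cDNA under the chicken beta actin promoter with the CMV enhancer, which is active in all tissues. HSD17B1, hydroxysteroid (17beta) dehydrogenase type 1, converts estrone into the more active estradiol. The labels name no treatment and do not say whether mice of different genotype shared a litter. HSD17B1TG females do not cycle, and the study's methods for histology state that WT uteri were collected at random phases of the estrous cycle. The transgene, the absence of a cycle and the phase of each WT mouse therefore cannot be told apart in this comparison. Mice are called TG1 to TG5 and WT1 to WT5, which are names only.

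Potassium channels let potassium leave the cell and so hold the membrane potential near rest or return it there after depolarization. In the myometrium they oppose the calcium entry that drives contraction, and in secretory epithelium they keep up the electrical force for chloride and fluid secretion. Kv channels open on depolarization, calcium activated channels open when calcium inside the cell rises, K2P channels carry background current, and auxiliary subunits change the gating, pharmacology or transport of the pores they bind.

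The deposited counts summed to between 14817228 and 23271988 in a mouse, so that 3 counts corresponded to 0.129 to 0.202 CPM. Of the 87 channel genes, 49 passed the filter on low counts and were tested among 16993 genes. Levels are given as FPKM, fragments scaled for gene length and sequencing depth, and 28 of the 49 had a mean over 1 FPKM. The other 38 were low. Their highest group mean was 0.629 FPKM, and 28 of them had a mean under 0.1 FPKM over all mice, although 19 had at least 3 counts in 5 or more mice. All 11 smooth muscle, 12 epithelium and 9 stroma markers had at least 3 counts in every mouse, as the labelled tissue requires. The libraries differed in their tissue make-up. The summed level of the smooth muscle markers ranged from 924 to 7703 FPKM in HSD17B1TG and from 452 to 6015 FPKM in WT, and TG1 and WT4 were the mice with the most in each group. In whole tissue, fewer cells of a type and less RNA per cell cannot be told apart.

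Of the tested channel genes, 3 differed between genotypes when judged by the study's own thresholds (adjusted p under 0.05, more than 2-fold, and over 1 FPKM on average in either group). Kcnd2 and Kcnt2 fell and Kcnh3 rose in HSD17B1TG. The 1 gene that rose was 2.04% of the tested channel genes, against 2.16% of all genes tested, and the 2 that fell were 4.08%, against 2.08%. These 3 were also the tested channel genes whose groups did not overlap, 1 above and 2 below, where 4.04% of all genes tested lay above and 2.65% below. The share that rose was thus near that of all genes.

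Kcnd2 (ENSMUSG00000060882; GRCm38 chr6:21215503-21729805, plus strand) encodes a pore subunit of the rapidly inactivating A-type current. It was nearly absent from every HSD17B1TG uterus, with 0.0104 FPKM in TG1, 0.0893 in TG2, 0 in TG3 and TG4, and 0.0998 in TG5. In WT it was 1.03 FPKM in WT1, 4.39 in WT2, 6.70 in WT3, 0.122 in WT4 and 7.01 in WT5. The groups did not overlap, although WT4, with 13 counts, lay just above TG5, with 8 counts, and the WT mice themselves ranged over 57.4-fold. Mean FPKM was 96.6-fold lower in HSD17B1TG, and the fitted difference was -6.59 ± 1.25 (SE) on the log2 scale (adjusted p = 0.0234, edgeR). The exact permutation test of 5 against 5 mice gave p = 0.00794, the smallest p this design allows. DESeq2 gave -6.60, but with so few counts in HSD17B1TG the size depends on the constant added before taking logs. It was -4.06 with limma on log2(FPKM + 0.1) and -1.86 on log2(FPKM + 1). Other annotated genes overlap Kcnd2 only in its introns.

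Kcnt2 (ENSMUSG00000052726; chr1:140246158-140612067, plus strand) encodes a channel opened by intracellular sodium. In HSD17B1TG it was 0.716 FPKM in TG1, 0.350 in TG2, 0.532 in TG3, 0.549 in TG4 and 0.447 in TG5. In WT it was 1.18 FPKM in WT1, 1.49 in WT2, 1.66 in WT3, 0.962 in WT4 and 1.46 in WT5. Every WT mouse was higher than every HSD17B1TG mouse, and the spread within each group was small. The difference was -1.39 ± 0.26 (SE) on the log2 scale (adjusted p = 0.0224, edgeR), with an exact permutation p = 0.00794. An antisense gene that shares exonic sequence with Kcnt2 had mean levels of 0.0194 FPKM in HSD17B1TG and 0.0147 FPKM in WT.

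Kcnh3 (ENSMUSG00000037579; chr15:99224861-99242817, plus strand) encodes a Kv pore subunit of the ether-a-go-go-like group, best known from the forebrain. In HSD17B1TG it was 2.58 FPKM in TG1, 1.84 in TG2, 0.859 in TG3, 1.07 in TG4 and 1.33 in TG5. In WT it was 0.579 FPKM in WT1, 0.658 in WT2, 0.625 in WT3, 0.496 in WT4 and 0.50 in WT5. The groups did not overlap, and the WT values were the tightest of all channel genes tested. The difference was 1.42 ± 0.31 (SE) on the log2 scale (adjusted p = 0.0337, edgeR), with an exact permutation p = 0.00794. Exons of Kcnh3 overlap those of Mcrs1 on the opposite strand, which had a mean of 17.4 FPKM in HSD17B1TG and 15.4 FPKM in WT. The strand setting of the counting is not given in the sources used here, so reads from Mcrs1 cannot be told apart from reads of Kcnh3 in the shared stretch.

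**Figure D1:**
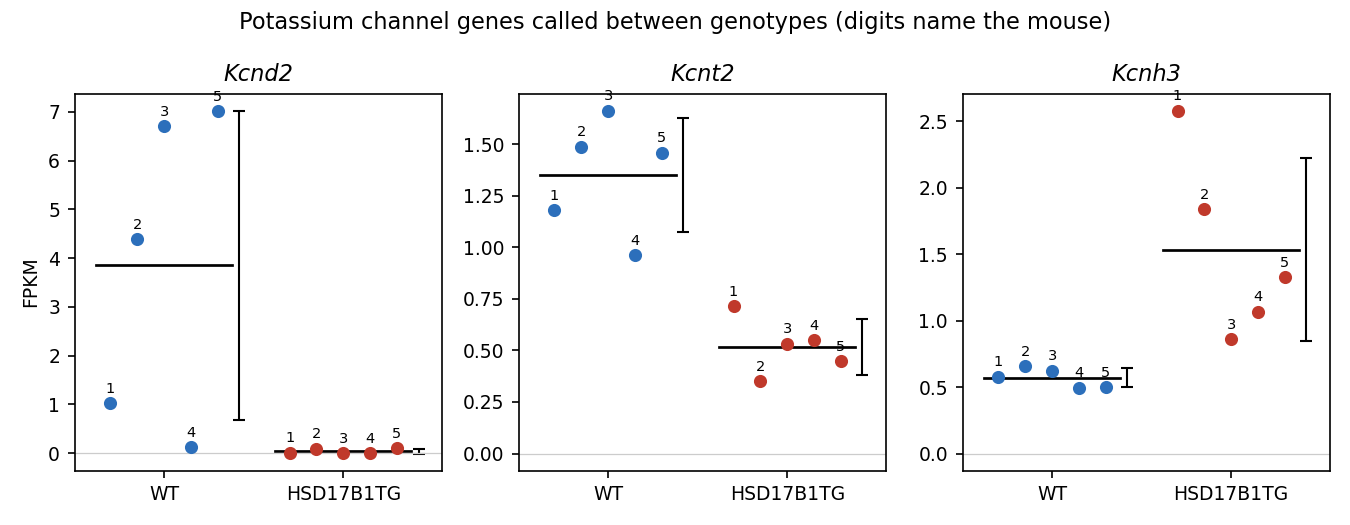
FPKM of Kcnd2, Kcnt2 and Kcnh3 in each WT (blue) and HSD17B1TG (red) mouse, where the digit names the mouse, the horizontal line is the group mean and the bar is ± 1 SD. No HSD17B1TG mouse overlaps the WT range in any of the panels, and WT4, at 0.122 FPKM, lies close to the HSD17B1TG mice for Kcnd2.

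All 3 calls depended on single mice. Kcnd2 and Kcnt2 passed in 4 of 10 fits with 1 mouse removed and were lost without TG2, TG4, TG5, WT2, WT3 or WT5, with adjusted p of at most 0.0577 and 0.0575 (edgeR). Kcnh3 passed in 3 of the 10 and was also lost without WT1, with an adjusted p of at most 0.0820. The directions and sizes were kept, with a difference of at least 6.27 for Kcnd2, 1.27 for Kcnt2 and 1.15 for Kcnh3 in absolute log2 units. Calls over all genes fell as well, to between 38 and 82 up (0.219% to 0.474%) and between 27 and 81 down (0.156% to 0.469%) in the 6 fits that lost Kcnd2 and Kcnt2, against 367 and 354 with all mice. The call of Kcnd2 was also lost with limma voom (adjusted p = 0.120) and with limma on log2(FPKM + 1) (adjusted p = 0.0506). In the latter fit Kcnt2 (-0.63) and Kcnh3 (0.65) kept an adjusted p under 0.05 but fell under the 2-fold limit. None of the 3 was therefore called with log2(FPKM + 1).

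The promoters of Kcnd2 and Kcnt2, the genes that fell, and of Kcnk1, the most abundant channel gene, are shown because the comparison concerns an enzyme of estradiol synthesis and the estrogen receptor binds a known DNA element. Each is the 250 bases before the RefSeq start on GRCm38.p6, on the plus strand, at chr6:21215096-21215345 for Kcnd2, chr1:140245468-140245717 for Kcnt2 and chr8:125994852-125995101 for Kcnk1. Capitals mark GGTCA or its reverse complement TGACC, the arm that occurs on both sides of the full estrogen response element.
Kcnd2: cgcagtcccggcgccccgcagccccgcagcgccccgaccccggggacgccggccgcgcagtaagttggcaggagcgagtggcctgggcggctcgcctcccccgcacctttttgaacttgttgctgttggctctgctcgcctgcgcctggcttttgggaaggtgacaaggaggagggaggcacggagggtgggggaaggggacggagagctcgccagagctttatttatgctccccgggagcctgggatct
Kcnt2: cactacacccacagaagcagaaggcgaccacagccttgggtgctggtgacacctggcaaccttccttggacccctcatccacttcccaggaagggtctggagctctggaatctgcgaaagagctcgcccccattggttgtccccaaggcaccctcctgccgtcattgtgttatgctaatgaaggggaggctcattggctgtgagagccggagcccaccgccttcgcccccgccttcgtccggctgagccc
Kcnk1: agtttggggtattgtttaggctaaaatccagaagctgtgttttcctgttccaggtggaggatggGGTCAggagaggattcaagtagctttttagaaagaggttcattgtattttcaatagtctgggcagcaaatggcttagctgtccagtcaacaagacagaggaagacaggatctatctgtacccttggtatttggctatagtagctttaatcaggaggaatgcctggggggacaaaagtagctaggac
The Kcnd2 and Kcnt2 windows held no such arm, and the Kcnk1 window held 1, starting 186 bases before the start. GC content was 68.8% for Kcnd2, 61.6% for Kcnt2 and 44.4% for Kcnk1, against a median of 58.4% over channel gene promoters and 52.4% over all promoters.

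RefSeq gave 87 promoters for 63 of the channel genes, and none for Kcnh3. The arm, searched on both strands, was found in 23 of the 87 (26.4%), against 35.2% of 32851 promoters of the same length. The full element GGTCANNNTGACC, which contains both arms, was found in 0 of the 87, against 0.0639% of all promoters. The core of the progesterone and glucocorticoid response element, ACANNNTGT, was found in 5 of the 87 (5.75%), against 5.84% of all promoters. These counts describe the letters in the windows and not binding.

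Across the 49 tested channel genes, 28 were higher and 21 lower in HSD17B1TG, with a median difference of 0.18 on the log2 scale, where the median of all genes tested was 0.00. The sign of this median rested on single mice, since over the genes tested in each fit (50 to 54) it was -0.10 without TG1, -0.03 without TG4 and -0.03 without WT4. At an unadjusted p under 0.05 (edgeR), 9 were higher (18.4%, against 14.7% of all genes tested) and 8 were lower (16.3%, against 11.4%). Apart from the 3 above, none of these passed the adjustment over all genes. The median was 0.03 for Kv pore subunits (20 tested), 0.19 for calcium and sodium activated channels (7 tested), -0.05 for inward rectifiers (3 tested), 0.86 for K2P channels (7 tested) and 0.41 for auxiliary subunits (12 tested). The K2P channels thus had the highest median, with 6 of 7 higher in HSD17B1TG under TMM, RLE factors and library totals alone. With library totals alone the median of all genes lay at -0.17 and that of the Kv pore subunits turned from 0.03 to -0.17. With 1 mouse left out, the median stayed between 0.68 and 1.09 for K2P channels and between 0.19 and 0.55 for auxiliary subunits, and ranged from -0.34 to 0.10 for Kv pore subunits, from -0.57 to 0.35 for calcium and sodium activated channels and from -0.17 to 0.11 for inward rectifiers.

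**Figure D2:**
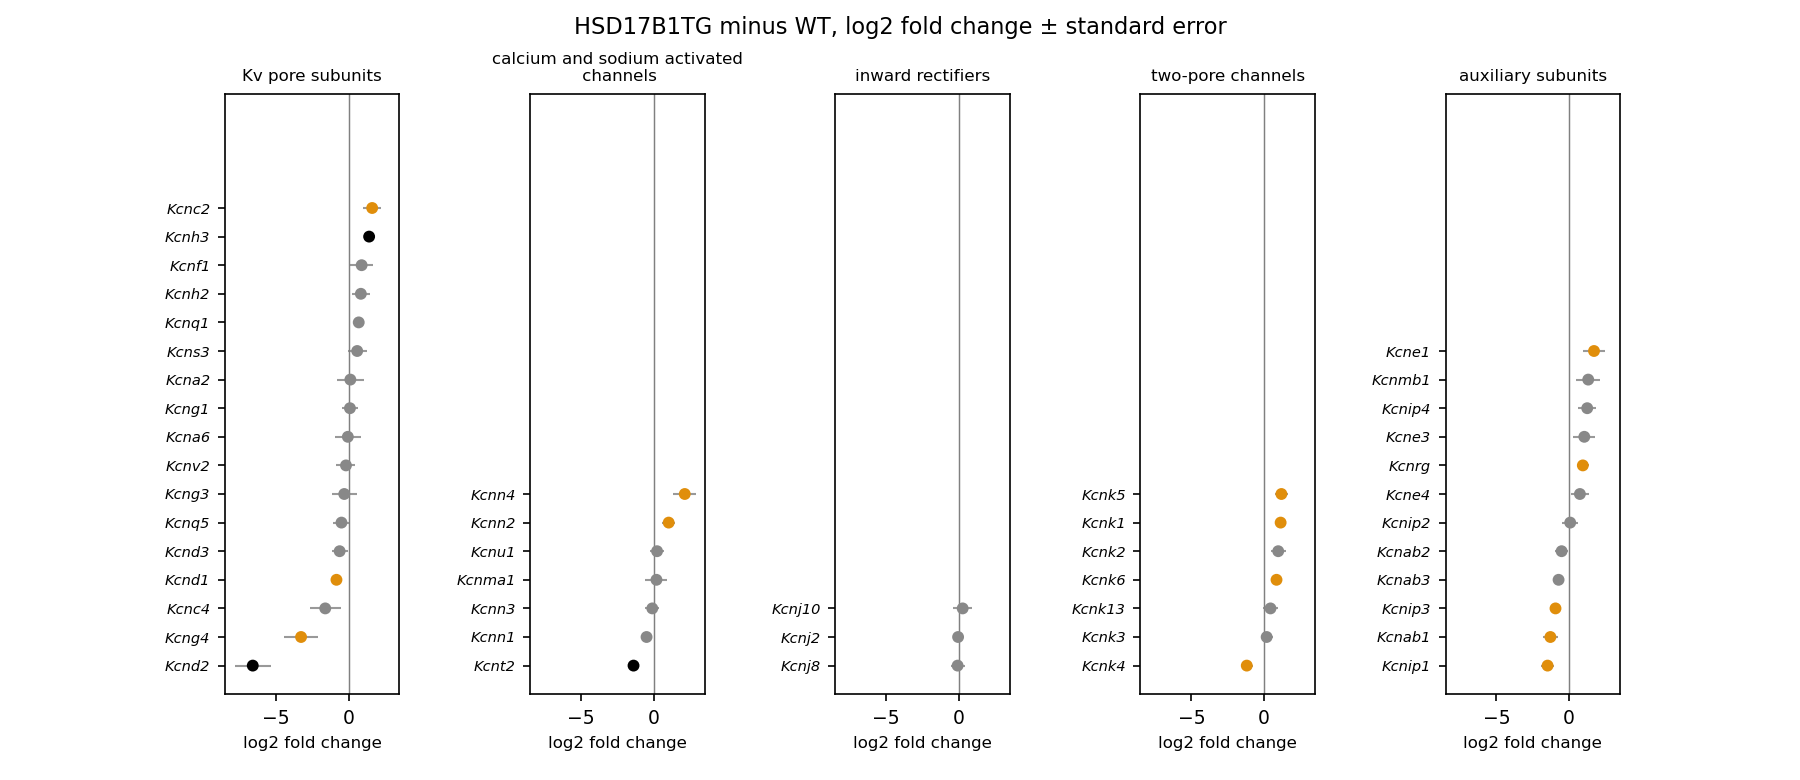
Difference between HSD17B1TG and WT on the log2 scale for tested channel genes, grouped by family, with horizontal bars of ± 1 SE; black points were called, orange points had an unadjusted p under 0.05 only and grey points neither. Apart from Kcnn4, Kcng4 and Kcnd2, all values lie within 2 log2 units of 0, and Kcnd2 at -6.59 stands far from the rest.

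All 3 Kcnd genes, whose pores carry A-type current, had negative differences under every scaling tried, and Kcnd2 was the only one of them that passed the test. The others, Kcnd1 (-0.83 ± 0.31, adjusted p = 0.119) and Kcnd3 (-0.61 ± 0.55, adjusted p = 0.519, edgeR), had negative differences on the log2 scale. Kcnd1 was 1.79 FPKM in TG1, 0.848 in TG2, 0.734 in TG3, 1.10 in TG4 and 0.632 in TG5, against 1.42 to 2.25 FPKM in WT, and only TG1 reached into the WT range. Kcnd3 ranged from 0.824 to 6.01 FPKM in HSD17B1TG and from 1.16 to 6.76 FPKM in WT, so that the groups overlapped widely.

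The KChIP proteins, encoded by the Kcnip genes, are calcium sensors that bind these pores. Kcnip1 was 0.502 FPKM in TG1, 0.185 in TG2, 0.120 in TG3, 0.280 in TG4 and 0.228 in TG5, and in WT it was 0.413 in WT1, 1.16 in WT2, 0.880 in WT3, 0.469 in WT4 and 0.748 in WT5. Only TG1 overlapped WT, and the difference was -1.48 ± 0.44 (SE; adjusted p = 0.0641, edgeR; 0.00990 with DESeq2). Kcnip3, which is also a transcriptional repressor, was more abundant, at a mean of 3.48 FPKM in HSD17B1TG and 6.64 FPKM in WT (-0.94 ± 0.39, adjusted p = 0.155, edgeR). Again TG1, at 7.10 FPKM, was the HSD17B1TG mouse within the WT range of 4.74 to 8.70 FPKM. Kcnip4 (1.24, adjusted p = 0.223) had a positive difference and Kcnip2 (0.07) lay near 0, so the Kcnip genes did not share a direction. Dpp6, a membrane partner of the same pores, was 8.43 FPKM in HSD17B1TG and 3.32 FPKM in WT on average (1.35, adjusted p = 0.369, edgeR). Its relative Dpp10 was too low to be tested.

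Kcng4 encodes a silent Kv subunit that works only in complex with other Kv pores. It was 0.211 FPKM in TG1, 0.0755 in TG2, 0.0140 in TG3, 0.163 in TG4 and 0 in TG5, and in WT it was 0.289 in WT1, 1.84 in WT2, 1.48 in WT3, 0 in WT4 and 0.924 in WT5. As for Kcnd2, the values of WT2, WT3 and WT5 were high and that of WT4 was the lowest of its group. The difference was -3.27 ± 1.16 (SE; adjusted p = 0.108, edgeR; 0.0269 with DESeq2).

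The WT mice with the lowest Kcnd2, WT4 and WT1, also had the most epithelium marker RNA of their group, with 1820 FPKM in WT4 and 1152 FPKM in WT1 against 540 to 865 FPKM in the other WT mice. Summed natural killer markers were lowest in WT4 too, at 10.6 FPKM, but WT1 had 62.6 FPKM and WT2, with more Kcnd2, 22.5 FPKM. The sum was 22.5 to 110 FPKM in the WT mice other than WT4 and 1.99 to 9.06 FPKM in HSD17B1TG. All 8 markers were lower in HSD17B1TG, of which 5 were called. Of the 9 stroma markers, 6 were called lower in HSD17B1TG. Their sum was 515 to 1931 FPKM in HSD17B1TG and 1743 to 2230 FPKM in WT, and Kcnd2 was near 0 also in TG1, the mouse at 1931 FPKM. The part of these cell types and of the cycle phase in the values of Kcnd2, Kcng4 and Kcnt2 was not tested.

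Among other Kv pores, Kcnh2 was the most abundant. It encodes the ERG channel, which shapes the repolarization of heart and smooth muscle. Kcnh2 was 50.2 FPKM in TG1, 21.3 in TG2, 17.6 in TG3, 23.3 in TG4 and 5.48 in TG5, and in WT it was 11.8 in WT1, 6.77 in WT2, 2.82 in WT3, 29.4 in WT4 and 14.5 in WT5. The groups overlapped, and the difference of 0.85 ± 0.62 did not pass (adjusted p = 0.424, edgeR). Kcnq1, a pore of epithelium and heart, was 5.42 ± 2.24 FPKM (SD, n = 5) in HSD17B1TG and 3.33 ± 1.25 FPKM in WT (adjusted p = 0.269, edgeR). Kcnq5, a pore of smooth muscle, stayed under 0.5 FPKM in every mouse.

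Of the Kcnc genes, which encode Kv pores with fast gating, neither Kcnc2 nor Kcnc4 passed the test. Kcnc2 was 1.29 FPKM in TG1, 4.69 in TG2, 2.56 in TG3, 1.83 in TG4 and 5.56 in TG5, and in WT it was 0.524 in WT1, 0.310 in WT2, 0.382 in WT3, 2.77 in WT4 and 1.18 in WT5. WT4 alone of the WT mice lay within the HSD17B1TG range, and the difference was 1.63 ± 0.64 (SE; adjusted p = 0.139, edgeR). Kcnc4 was 4.19 FPKM in WT3 and no higher than 0.233 FPKM in any other WT mouse, so its WT mean rested on 1 mouse.

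**Figure D3:**
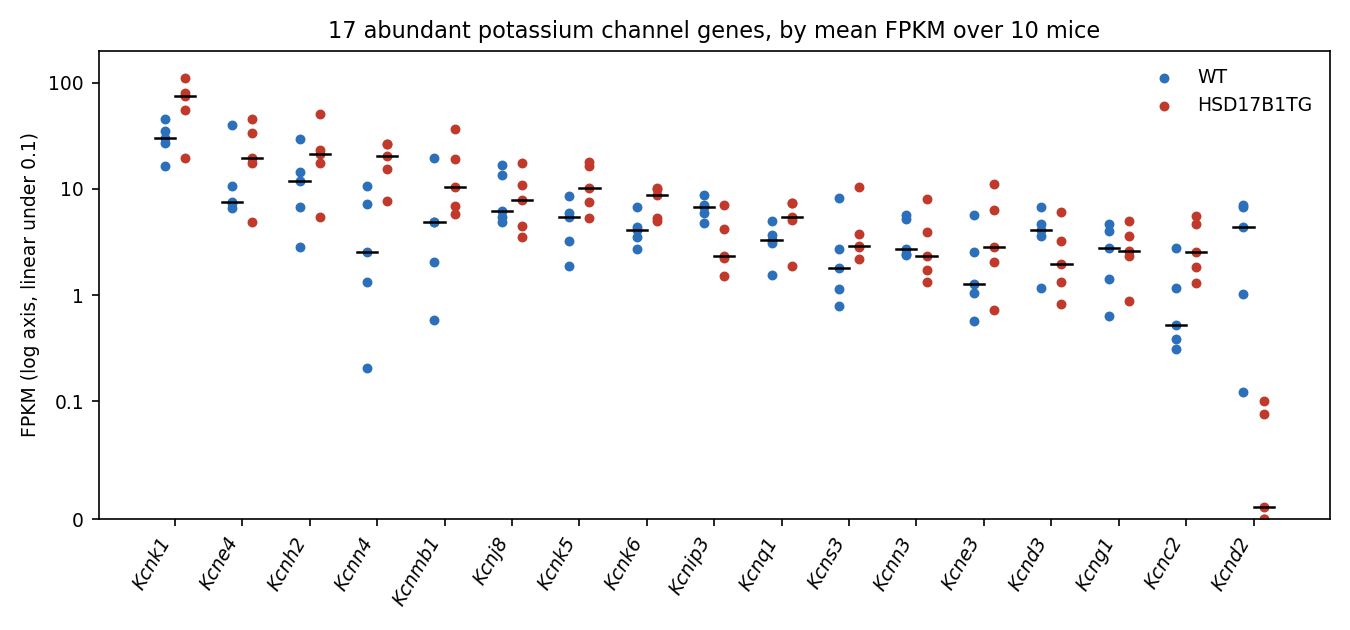
FPKM of 17 abundant channel genes, ordered by mean over all mice, with WT (blue) and HSD17B1TG (red) mice as points and group medians as lines, on a log axis that is linear under 0.1. Kcnk1 is the most abundant, and Kcnd2 at the right has the group medians furthest apart on this axis, although WT4 lies close to the HSD17B1TG mice.

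Kcnk1 was the most abundant channel gene. It encodes TWIK1, a weakly conducting K2P channel of epithelium and brain, and supplied 6.66% to 49.4% of the summed channel FPKM of an HSD17B1TG mouse and 14.9% to 26.3% of that of a WT mouse. Kcnk1 was 19.6 FPKM in TG1, 80.7 in TG2, 74.5 in TG3, 54.8 in TG4 and 111 in TG5, and in WT it was 34.9 in WT1, 30.1 in WT2, 16.5 in WT3, 45.5 in WT4 and 27.0 in WT5. Apart from TG1, which was lower than all WT mice but WT3, every HSD17B1TG mouse exceeded every WT mouse. The difference was 1.15 ± 0.40 (SE) on the log2 scale (adjusted p = 0.103, edgeR; 0.0475 with DESeq2), and without TG1 it passed the test with edgeR.

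The related TWIK2 gene Kcnk6 was 5.31 FPKM in TG1, 10.2 in TG2, 8.67 in TG3, 5.02 in TG4 and 10.01 in TG5, and in WT it was 4.07 in WT1, 2.71 in WT2, 3.56 in WT3, 6.81 in WT4 and 4.39 in WT5. Only WT4 overlapped the HSD17B1TG mice (0.86 ± 0.29, adjusted p = 0.0890, edgeR; 0.0463 with DESeq2). Kcnk5, the alkali-activated TASK2 channel of epithelia, had means of 11.5 FPKM in HSD17B1TG and 5.00 FPKM in WT, and its difference was 1.20 ± 0.43 (adjusted p = 0.109, edgeR). Its highest levels were 18.0 FPKM in TG2 and 16.5 FPKM in TG1.

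The mechanosensitive K2P channels pointed in different directions. Kcnk2 (TREK1) was 1.26 ± 0.37 FPKM (SD, n = 5) in HSD17B1TG and 0.638 ± 0.465 FPKM in WT (adjusted p = 0.266, edgeR). Kcnk4 (TRAAK) was 0.671 ± 0.280 FPKM in HSD17B1TG and 1.53 ± 0.62 FPKM in WT (-1.18 ± 0.40, adjusted p = 0.0953, edgeR; 0.0358 with DESeq2). Kcnk4 shares exons with Catsperz on the same strand, which had a mean of 1.03 FPKM in HSD17B1TG and 6.04 FPKM in WT, so its counts are uncertain. Kcnk3 (TASK1) was near 1 FPKM in both groups.

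Kcnn4 had the largest positive difference of all channel genes tested. It encodes the intermediate conductance calcium activated channel of epithelial cells, red cells and leucocytes. Kcnn4 was 7.76 FPKM in TG1, 20.5 in TG2, 26.7 in TG3, 15.3 in TG4 and 26.2 in TG5, and in WT it was 7.16 in WT1, 2.55 in WT2, 0.206 in WT3, 10.7 in WT4 and 1.34 in WT5. Only WT4 and TG1 overlapped, while the WT mice ranged over 51.7-fold. The difference was 2.14 ± 0.78 (SE) on the log2 scale (adjusted p = 0.115, edgeR; 0.0287 with DESeq2), with an exact permutation p = 0.0159.

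The channels KCa2.2 and KCa2.3, of the genes Kcnn2 and Kcnn3, are small conductance channels, and the latter damps contraction of the uterus. Kcnn3 was 3.46 ± 2.73 FPKM (SD, n = 5) in HSD17B1TG and 3.67 ± 1.61 FPKM in WT, a difference of -0.10 ± 0.48 (adjusted p = 0.922, edgeR). Kcnn2 was lower in level, at 0.710 FPKM in HSD17B1TG and 0.345 FPKM in WT (1.03 ± 0.45, adjusted p = 0.173, edgeR). Both were highest of the HSD17B1TG mice in TG1.

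The large conductance (BK) channel is formed by the Kcnma1 pore and, in smooth muscle, the beta subunit Kcnmb1. Kcnma1 was low, at 0.787 ± 0.845 FPKM (SD, n = 5) in HSD17B1TG and 0.689 ± 0.574 FPKM in WT (0.19 ± 0.76, adjusted p = 0.899, edgeR). Kcnmb1 was 37.0 FPKM in TG1, 10.4 in TG2, 6.92 in TG3, 19.0 in TG4 and 5.75 in TG5, and in WT it was 4.83 in WT1, 2.06 in WT2, 0.577 in WT3, 19.5 in WT4 and 4.88 in WT5. WT4 stood within the HSD17B1TG range, and all other WT mice stood under it (1.31 ± 0.81, adjusted p = 0.332, edgeR). Lrrc26, the gamma subunit that lets BK channels open at rest in secretory epithelium, ranged from 11.5 to 52.8 FPKM in HSD17B1TG and from 0.104 to 16.8 FPKM in WT (2.39 ± 0.81, adjusted p = 0.0955, edgeR; 0.0193 with DESeq2).

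Few inward rectifiers were expressed. Of 14 listed, 3 were tested, and none of these had an unadjusted p under 0.05 (edgeR) or was called by DESeq2. Kcnj8, the pore of the vascular ATP-sensitive channel, was 8.85 ± 5.69 FPKM (SD, n = 5) in HSD17B1TG and 9.36 ± 5.40 FPKM in WT (-0.08 ± 0.49, adjusted p = 0.935, edgeR). Its sulfonylurea receptor partner Abcc9 was 3.41 FPKM in HSD17B1TG and 3.82 FPKM in WT (adjusted p = 0.831, edgeR). Kcnj2, the classical strong inward rectifier, was 0.386 ± 0.111 FPKM in HSD17B1TG and 0.399 ± 0.176 FPKM in WT (adjusted p = 0.946, edgeR). Kcnj11, the other pore of ATP-sensitive channels, and Kcnj13, Kcnj15 and Kcnj16, channels of transporting epithelium, were too low for testing and stayed under 0.3 FPKM in every mouse.

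Among auxiliary subunits the Kcne genes, whose small membrane proteins set the gating of Kcnq1 and other pores, were higher in HSD17B1TG in all 3 that were tested, with none past the test. Kcne4 was 45.3 FPKM in TG1, 33.9 in TG2, 19.3 in TG3, 17.6 in TG4 and 4.88 in TG5, and in WT it was 7.44 in WT1, 6.54 in WT2, 7.44 in WT3, 40.3 in WT4 and 10.7 in WT5. TG5 was the lowest mouse of all and WT4 the highest but TG1, so the groups overlapped (0.74 ± 0.64, adjusted p = 0.499, edgeR). Kcne1 had means of 1.68 FPKM in HSD17B1TG and 0.511 FPKM in WT (1.71 ± 0.77, adjusted p = 0.189), and Kcne3 4.63 FPKM and 2.24 FPKM (1.04 ± 0.77, adjusted p = 0.424, edgeR). Kcne2 was not tested, and 110 of its counts were in WT5 (3.04 FPKM), with at most 3 counts in any other mouse.

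The Kcnab genes, which encode the cytoplasmic beta subunits of Kcna channels, had negative differences in all 3 members, from -1.29 for Kcnab1 (adjusted p = 0.156, edgeR) to -0.52 for Kcnab2. Kcnab1 was highest in WT3, at 2.65 FPKM, and WT5, at 1.96 FPKM, while the other WT mice, at 0.492 to 0.753 FPKM, overlapped the HSD17B1TG mice at 0.192 to 0.751 FPKM. Of their 7 pore partners Kcna1 to Kcna7, only Kcna2 and Kcna6 could be tested. Their differences of 0.13 ± 0.94 and -0.05 ± 0.89 (SE) were too uncertain to tell a change from none. Kcna5, a pore of vascular smooth muscle, did not exceed 0.217 FPKM in any mouse. Kcnrg, which blocks the assembly of Kv channels, had means of 1.05 FPKM in HSD17B1TG and 0.545 FPKM in WT (0.94 ± 0.42, adjusted p = 0.185, edgeR).

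**Figure D4:**
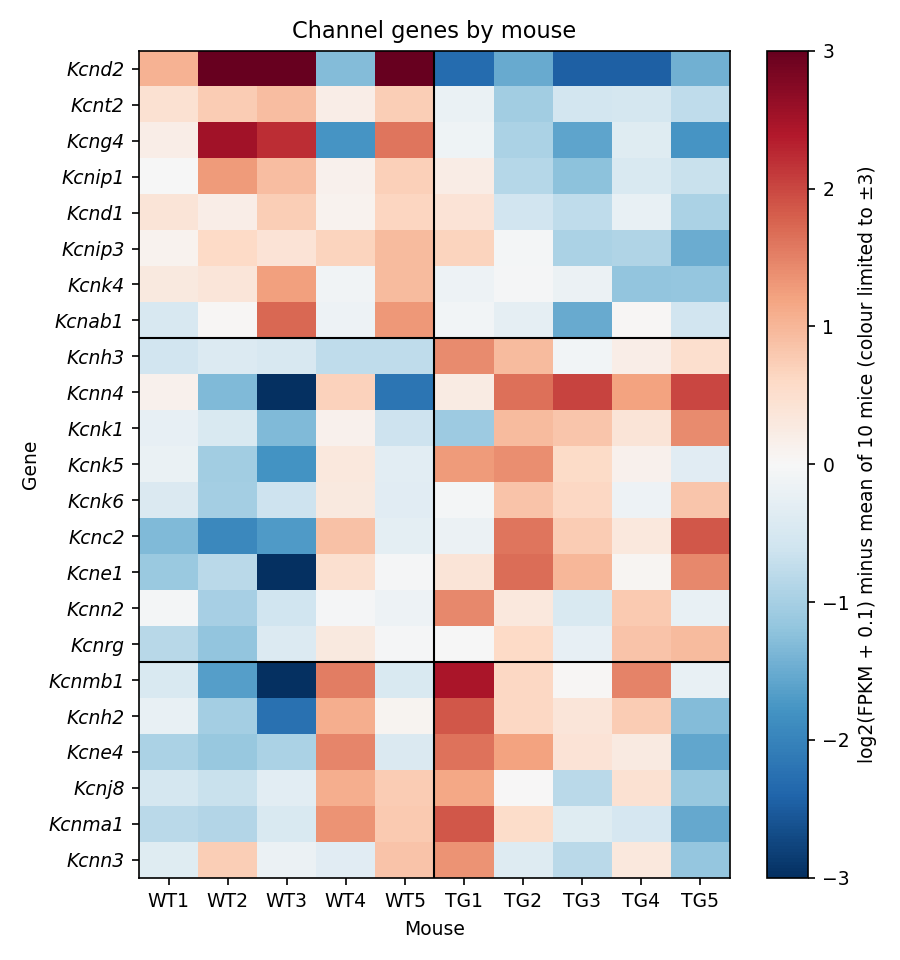
Level of 23 channel genes in each mouse as log2(FPKM + 0.1) minus the mean of all 10 mice, red above and blue below the mean. The upper block holds genes with an unadjusted p under 0.05 that were lower in HSD17B1TG, the middle block those that were higher and the lower block genes of smooth muscle and vessel, in which TG1 and WT4 are high in most rows.

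The median spread from mouse to mouse was wider over the tested channel genes than over all genes tested. No comparison with genes of similar level was made, so this is not shown to be a trait of channel genes. The median SD of log2(FPKM + 0.1) was 0.771 in HSD17B1TG and 0.740 in WT over the tested channel genes, against 0.417 and 0.357 over all genes tested. Within groups, TG1 was the highest HSD17B1TG mouse for 24 of the 49 and WT4 the highest WT mouse for 19. Both held for 10 genes, among them Kcne4, Kcng1, Kcnh2, Kcnip4, Kcnj8, Kcnma1, Kcnmb1, Kcnn2 and Kcns3. At the low end, TG5 was lowest for 19 and WT3 for 15, and both held for 6. The same mice were the extremes of the smooth muscle markers, with 7703 FPKM in TG1, 924 in TG5, 6015 in WT4 and 452 in WT3. Of the 11 smooth muscle markers, 0 were called between genotypes by edgeR or DESeq2 and 0 had an unadjusted p under 0.05 (edgeR), although all 11 had a positive difference, with a median of 0.56 and mean sums of 3275 FPKM in HSD17B1TG and 2183 FPKM in WT.

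Set against the smooth muscle markers, the level of Kcnh2 was 0.592% to 0.947% of their sum in HSD17B1TG and 0.489% to 1.19% in WT, although its FPKM ranged over 9.17-fold and 10.4-fold within the groups. Kcnmb1 was 0.373% to 0.622% of the same sum in HSD17B1TG and 0.128% to 0.363% in WT, so that by this measure the groups did not overlap. Kcnj8 was 0.229% to 0.379% in HSD17B1TG and 0.279% to 1.38% in WT, with overlap, and so was Kcne4, with 0.528% to 1.29% and 0.439% to 1.65%. Of the 7 genes set against this sum, Kcnmb1 was the only one without overlap, with 0.373% in TG3 against 0.363% in WT2. How many of all genes would be without overlap by this measure was not counted. These shares were computed after the values had been seen and were not tested.

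Kcnk1 and the epithelium markers had the same extreme mice in HSD17B1TG. The sum of these markers was 760 FPKM in TG1, 2498 in TG2, 2730 in TG3, 2148 in TG4 and 3564 in TG5, and in WT it was 1152 in WT1, 865 in WT2, 667 in WT3, 1820 in WT4 and 540 in WT5. As for Kcnk1, TG1 was by far the lowest of its group and TG5 the highest, and WT4 was the highest WT mouse. Kcnk5 ran against this order in HSD17B1TG, with 16.5 FPKM in TG1 and 5.34 FPKM in TG5, which was 2.18% and 0.150% of the sum, and Kcnk4 was lower in HSD17B1TG on average. Of the 12 markers 0 were called and 7 had an unadjusted p under 0.05, all 7 higher in HSD17B1TG (edgeR), while DESeq2 called 3 higher. Kcnk1 was 2.55% to 3.23% of the epithelium sum in HSD17B1TG and 2.47% to 5.01% in WT, and the groups overlapped. Kcnk6 overlapped too, with 0.234% to 0.699% in HSD17B1TG and 0.314% to 0.812% in WT. Kcnn4 was 0.711% to 1.02% of the sum in HSD17B1TG and 0.0309% to 0.621% in WT and did not overlap. Of the 7 genes set against the epithelium sum, Kcnn4 was the only one without overlap, as Kcnk5, Kcnc2, Kcnq1 and Kcne1 overlapped too. These shares were also computed after the values had been seen and were not tested. How many of all genes would be without overlap against the epithelium sum was not counted either. The leucocyte markers, which mark another cell type with Kcnn4, summed to 194 to 502 FPKM in HSD17B1TG and 147 to 196 FPKM in WT, but they did not share a direction. Of the 7, 2 were called higher, while the other 5 had negative differences, 3 of them at an unadjusted p under 0.05 (edgeR) and 2 called lower by DESeq2, and the median was -0.55. The macrophage markers summed to 201 to 366 FPKM in HSD17B1TG and 100 to 186 FPKM in WT, with 5 of 6 higher and 1 called (2 by DESeq2). The part of these cell types in the level of Kcnn4 was not tested.

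**Figure D5:**
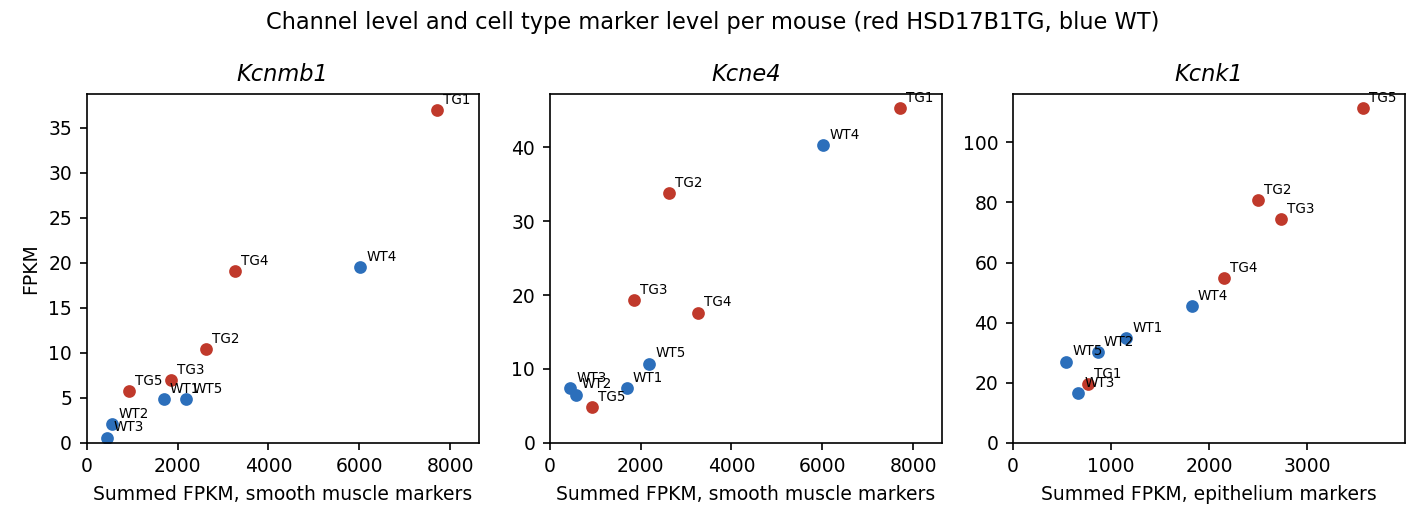
FPKM of Kcnmb1 and Kcne4 against the summed FPKM of 11 smooth muscle markers, and of Kcnk1 against that of 12 epithelium markers, in each HSD17B1TG (red) and WT (blue) mouse. TG1 and WT4 are the mice with the most smooth muscle marker RNA and the highest Kcne4, and TG5 has the most epithelium marker RNA and the highest Kcnk1, 111 FPKM.

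Other cell types with many potassium channels had lower marker sums. Nerve and Schwann cell markers summed to 11.6 to 23.4 FPKM in HSD17B1TG and 2.84 to 6.61 FPKM in WT, without overlap. Of the 3 tested 1 was called higher by edgeR, DESeq2 called 2 higher, and 7 of the 9 listed, the defining Sox10 and S100b among them, had under 3 counts in some mouse. Their part in the level of Kcnh3 was not tested. Endothelium markers summed to 37.3 to 139 FPKM in HSD17B1TG and 64.5 to 145 FPKM in WT, and pericyte markers to 45.1 to 168 FPKM and 96.4 to 153 FPKM, with 0 of 9 and 0 of 6 called by edgeR, 1 of each called lower by DESeq2, and 4 and 2 with an unadjusted p under 0.05 (edgeR). Skeletal muscle markers were highest in WT4, at 78.2 FPKM, and lay between 5.35 and 38.7 FPKM in HSD17B1TG.

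With both TG1 and WT4 left out, a choice made after their smooth muscle marker levels had been seen, more channel genes passed the thresholds. The genes called higher were then Kcnc2, Kcnh3, Kcnip4, Kcnk1, Kcnk6 and Kcnn4, which was 6 of 52 tested (11.5%, against 6.64% of all genes tested). The genes called lower were Kcnd1, Kcnd2, Kcnip3 and Kcnt2, which was 4 of 52 (7.69%, against 5.06%). With all mice, 2.16% of all genes tested were called higher and 2.08% lower. For Kcnc2, Kcnd1, Kcnip3, Kcnip4, Kcnk1, Kcnk6 and Kcnn4, the overlap between groups came from TG1, WT4 or both. Leaving these mice out therefore favours such calls, and the added calls are no further evidence for a difference. In this fit of 4 against 4 mice, Kcnk1 had a difference of 1.56 (adjusted p = 0.00707, edgeR), Kcnn4 of 2.97 (adjusted p = 0.0323, edgeR) and Kcnd1 of -1.20 (adjusted p = 0.0157, edgeR). Kcnk5, with 1.31 (adjusted p = 0.0721, edgeR), and Kcnmb1, with 1.77 (adjusted p = 0.0809, edgeR), did not pass. The median difference of the channel genes in this fit was -0.15.

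The other genes that set the membrane potential and calcium entry were counted from hand-written lists. Of 8 partner subunits outside the Kcn family 6 were tested, of 3 HCN pacemaker channels 2, of 16 subunits of sodium and proton potassium pumps 15, and of 5 potassium chloride cotransporters 5, and 0 of these were called by edgeR. At an unadjusted p under 0.05 (edgeR), 5 of them were higher and 4 lower in HSD17B1TG, where 14.7% of all genes tested were higher and 11.4% lower. DESeq2 called 1 of the partner subunits higher and 1 of the pump subunits lower. Of 36 genes of calcium entry and excitation, 35 were tested, 3 rose (8.57%, against 2.16% of all genes tested) and 1 fell (2.86%, against 2.08%). DESeq2 called 4 of this list up and 3 down, where it called 4.48% of all genes up and 3.28% down.

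The chloride channel gene Ano1, whose product depolarizes smooth muscle and pacemaker cells when calcium rises, fell. It was 2.35 FPKM in TG1, 3.60 in TG2, 2.25 in TG3, 2.06 in TG4 and 2.02 in TG5, and in WT it was 7.09 in WT1, 21.8 in WT2, 20.1 in WT3, 2.56 in WT4 and 17.6 in WT5 (-2.50 ± 0.51, adjusted p = 0.0260, edgeR). WT4 lay within the HSD17B1TG range, and WT2, WT3 and WT5 were the highest mice, as for Kcnd2 and Kcng4. Trpm4, a calcium activated cation channel, rose from a mean of 3.47 FPKM in WT to 9.83 FPKM in HSD17B1TG (1.50 ± 0.26, adjusted p = 0.0204, edgeR). Orai1, the pore of store-operated calcium entry, rose from 6.30 to 12.7 FPKM (1.00 ± 0.20, adjusted p = 0.0260, edgeR), and Cacna2d3, an auxiliary subunit of calcium channels, rose from 0.464 to 2.17 FPKM (2.22 ± 0.57, adjusted p = 0.0456, edgeR). These calls were lost in part when 1 mouse was left out. That of Cacna2d3 was lost in 8 of 10 such fits, all but those without TG1 or WT4, with adjusted p up to 0.110 (edgeR). The calls of Ano1 and Orai1 were each lost without TG2, TG4, TG5, WT2, WT3 or WT5 (adjusted p up to 0.0692 and 0.0697, edgeR), and that of Trpm4 without TG2, TG5, WT2 or WT5 (up to 0.0565). All 4 differences kept their direction in the 10 fits. By method, limma voom lost Ano1 (adjusted p = 0.0802) and Cacna2d3 (adjusted p = 0.0501), and edgeR on every gene with a count lost Cacna2d3 (adjusted p = 0.0513). Orai1 lay at the 2-fold limit and fell under it with limma voom (0.97), library totals alone (0.83), every gene with a count (0.96) and both log2(FPKM) fits. Cacna1g, the pore of a T-type calcium channel, which was chosen after its values were seen, was 1.60 to 8.35 FPKM in HSD17B1TG and 11.5 to 31.1 FPKM in WT. Its groups did not overlap, but the difference did not pass with edgeR (-1.67 ± 0.45, adjusted p = 0.0531, edgeR; 0.00536 with DESeq2).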

How the data were processed

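Uterine RNA of 5 HSD17B1TG and 5 WT mice was sequenced by the authors as paired-end reads of 150 bp and mapped with HISAT2 2.0.5 to GRCm38 with Ensembl 94. The authors deposited raw counts per gene, the same counts divided by DESeq2 size factors (a normalized signal, used only to check the scale), and FPKM, which are scaled by the size factor and not by the library's own total. Neither the counting software nor whether it used strand is named in the sources used here. Columns of the deposited tables with the authors' fold changes and p-values, and their enrichment tables, were not used.

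In R 4.3.3, genes kept by filterByExpr were scaled by TMM, and the quasi-likelihood test of edgeR 4.0.16 was applied to the deposited counts, with Benjamini-Hochberg adjustment over all genes tested. SE are the absolute log2 fold change divided by the square root of F. Single genes were also tested by exact permutation (two-sided) of log2(FPKM + 0.1) over the 252 assignments of 10 mice. The labels name no batch. Some genes are counted but not reported by name here. Alternatives were DESeq2 1.42.0, limma 3.58.1 (voom, log2(FPKM + 1) and log2(FPKM + 0.1)), RLE factors, library totals alone, other count filters and FPKM thresholds, and each mouse left out. The fits were tested on simulated counts with 200 changed genes.

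Channel genes, families and lists were chosen with earlier results of these data known. Channel genes were named where they were called, did not overlap between groups, were among the 2 most abundant of their family, or had a known role in smooth muscle, epithelium or vessel, and genes of the other lists where the adjusted p was under 0.05 or where they are partners of the channels (Abcc9, Dpp6, Dpp10 and Lrrc26). The genes Kcna2, Kcna6, Kcnab2, Kcnc2, Kcnc4, Kcnd1, Kcne2, Kcng4, Kcnip2, Kcnip3, Kcnip4, Kcnk4, Kcnrg and Cacna1g were added after their values were seen, as were lists of genes by extreme mouse. GENCODE M21, which shares coordinates for 84 of the channel genes, lists 7 further Kcn genes that were not analysed here, and in it exons of 27 channel genes overlap those of another gene. The floor of 3 counts covers counting error only, while SD and SE include the spread between mice.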

Additional observations from a re-analysis of the deposited data

Results flagged for a closer look

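Of 97 groups of 5 mice over the 50 channel genes named in the text, 11 had a mouse far from the others of its genotype. Chance gives about 1 in 20 for normally distributed values, but FPKM are skewed and some genes were named after their values were seen, so the count is not read against that share. Kcne4 was 40.3 FPKM in WT4, with 6.54 to 10.7 FPKM in the other WT mice, and Kcnmb1 was 19.5 FPKM in WT4, with 0.577 to 4.88 FPKM in the others. Kcns3 was 8.20 FPKM in WT4, with 0.784 to 2.72 FPKM in the others, and 10.4 FPKM in TG1, with 2.19 to 3.76 FPKM in the other HSD17B1TG mice. WT4 and TG1 also had the highest smooth muscle marker sums of their groups, 6015 and 7703 FPKM, and the part of this in these values was not tested. Kcnc4 was 4.19 FPKM in WT3, with 0.198 to 0.233 FPKM in the other WT mice, and Kcna2 was 0.951 FPKM in WT2, with 0.0203 to 0.171 FPKM in the others. Kcne2 was 3.04 FPKM in WT5 and at most 0.0548 FPKM in the others. Kcna7 was 0.142 FPKM in WT3, from 5 counts, with 0.0444 to 0.0559 FPKM in the others. Kcnj13 was 0.169 FPKM in TG1, from 4 counts, and was listed at 0 in the other HSD17B1TG mice. Kcnj16 was 0.0744 FPKM in WT5, from 6 counts, and was listed at 0 in the other WT mice. Kcnj1, the renal outer medullary channel, was 0.381 FPKM in WT5, from 26 counts, and had 0 counts in every other mouse.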

How the results depend on the processing

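Kcnh3 rose and Kcnd2 and Kcnt2 fell under RLE factors, library totals alone, either count filter and log2(FPKM + 0.1). DESeq2 called 3 channel genes up (Kcnh3, Kcnk1, Kcnn4) and 3 down (4.23% each of the 71 given an adjusted p, against 4.48% and 3.28% of all genes), and at an adjusted p under 0.05 alone 4 up and 6 down. With limma voom 1 (Kcnt2) was called down (1 at adjusted p alone), and with log2(FPKM + 1) 1 up (Kcnn4) and 0 down, with 2 up and 1 down at adjusted p alone. With 1 mouse left out, 0 to 5 were called up and 0 to 4 down, and 0 to 5 passed the adjusted p in each direction. Without TG1 2 were up and 4 down (3.85% and 7.69%, against 4.36% and 3.33% of all genes). Without WT4 5 were up and 2 down (9.26% and 3.7%, against 5.12% and 3.75% of all genes). Without TG2, TG4, TG5, WT2, WT3 or WT5 0 were called in either direction, where under 0.5% of all genes were called in each direction. With both TG1 and WT4 left out, 6 were called up and 4 down (11.5% and 7.69%, against 6.64% and 5.06% of all genes), and 6 and 7 passed the adjusted p alone. The median difference was then -0.15, against 0.18 with all mice, 0.01 with library totals alone, -0.13 with every gene with a count (87 channel genes), and -0.10 to 0.29 with 1 mouse left out. Of the pathway lists, 3 genes were called up and 1 down. DESeq2 gave 5 and 4, voom 1 and 1, every gene with a count 1 and 1, library totals alone 2 and 2, log2(FPKM + 1) 3 and 2, log2(FPKM + 0.1) 2 and 2, both mice left out 6 and 5, and 1 mouse left out 0 to 5 and 0 to 5. The cause of these changes was not tested. Library totals alone shifted the median of all genes by -0.17 on the log2 scale and gave 286 genes called up and 494 down, against 367 and 354. No named gene with a call turned its direction. No paired analysis was possible because the labels give the groups no shared replicate numbers. Of the 87 channel genes, 38 did not pass the count filter and were not tested.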

Other observations

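Kcnh1, a Kv pore of the ether-a-go-go group, was 0.524 FPKM in WT3 and 0.225 FPKM in WT4, and no higher than 0.0585 FPKM elsewhere.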
